A study of Rattus norvegicus with 20 samples.

Results

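The mir-203 and mir-205 microRNAs are described here in 15 rat tissues and in blood serum. The members were every miRBase precursor named rno-mir-205 or beginning rno-mir-203, which gave 3 of the 444 precursors listed (rno-mir-203a, rno-mir-203b and rno-mir-205, called mir-203a, mir-203b and mir-205 below), together with their 5 mature arms of the 577 listed. They were chosen by name and not by their values, though with earlier results of these data known. All libraries came from untreated, non-drinking male Long Evans rats at postnatal day 35, a cohort of 3 animals collected to trace the tissue origin of serum microRNAs. The brain (a whole hemisphere) and the blood serum were sequenced as 3 libraries each, 1 for each rat. The other 14 tissues (subcutaneous abdominal fat, heart, kidney, large intestine, liver, lung, hindlimb muscle, pancreas, skin, small intestine, spleen, stomach, testes and thymus) were each a single library of RNA pooled from 3 rats, so their values have no replicate error.

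A microRNA is cut from a hairpin precursor into short mature arms, and bases 2 to 8 of an arm, its seed, pair with the messenger RNAs that it represses. miR-203 and miR-205 are known for their abundance in the keratinocytes of stratified epithelium. miR-203 restrains p63, the transcription factor of basal keratinocytes, as cells leave the basal layer, and miR-205 is known from basal progenitor cells and for repressing ZEB1 and ZEB2, a role it shares with the mir-200 family.

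The mature arms are shown because their seeds differ and because the arms of mir-203a and mir-203b overlap on opposite strands. The sequences are those of RefSeq (GRCr8 build), 5′ to 3′, with the seed in capitals.
miR-203a-3p: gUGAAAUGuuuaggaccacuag
miR-203a-5p: aGUGGUUCuuaacaguucaac
miR-203b-3p: uUGAACUGuuaagaaccacugg
miR-203b-5p: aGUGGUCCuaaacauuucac
miR-205: uCCUUCAUuccaccggagucugu

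The 5 seeds were all different, and none was found in any of the other arms of the RefSeq rat table. Counted from 1 at the 5′ end, the first 8 bases of miR-203a-3p and miR-203b-3p differed by G1U and A6C. The hairpins are printed with the mature arms in capitals, since they show where the reads described below came from.
mir-203a: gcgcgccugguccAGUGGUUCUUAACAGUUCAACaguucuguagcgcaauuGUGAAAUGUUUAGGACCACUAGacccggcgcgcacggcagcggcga
mir-205: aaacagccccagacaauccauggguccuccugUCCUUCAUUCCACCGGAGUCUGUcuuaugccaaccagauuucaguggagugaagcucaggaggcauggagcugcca

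In GRCr8 the mir-203a hairpin lies at chr6:137020705-137020801 on the plus strand, between the protein-coding genes Aspg and Kif26a. The mir-203b hairpin (RefSeq gene Mir3545) lies over it on the minus strand, at chr6:137020691-137020805. The mir-205 hairpin lies at chr13:107564535-107564642 on the minus strand, between Camk1g and Plxna2. The reads themselves were aligned to the older Rn5 build, so these positions are those of the sequences and not of the read counts.

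Levels are given as reads per 1000000 reads assigned to miRBase precursors (RPM), with the 95% Wilson interval in brackets, which covers counting error only. The 14 pools held between 162080 and 3685761 precursor reads and the brain libraries between 388275 and 1204552, whereas the serum libraries held between 7556 and 10862. A count of 0 therefore allows a level of up to 0.814 to 18.5 RPM in a pool, 2.49 to 7.73 RPM in a brain library and 276 to 397 RPM in a serum library (a floor of 3 reads). The marker microRNAs went against 1 label: the library labelled pancreas held mir-122, a liver microRNA, at 14862 RPM, next to 14726 RPM in liver, and had 0 RPM of the pancreatic mir-216a and mir-217. The 4 pancreatic microRNAs listed, with mir-375 and mir-216b, were not all absent: they summed to 501 RPM in that library, against 756 RPM in liver. It is named below as the library labelled pancreas.

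Skin held the most of both microRNAs, and stomach the next most. mir-203a was at 40295 RPM (39853 to 40742) in skin, 3398 (3272 to 3528) in stomach, 3077 (2923 to 3241) in small intestine and 1680 (1639 to 1723) in large intestine. These 4 tissues lay apart from each other and above every other tissue, although on the RefSeq list large intestine (1641 RPM) came just before small intestine (1591 RPM). In skin mir-203a was the fifth most abundant precursor, with 30338 reads or 4.03% of the library. By library totals, skin held 77.4% of the summed mir-203a level over the 15 tissues, and its log2(RPM + 1) lay 6.40 above the tissue median.

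Below the intestine, mir-203a fell away slowly. It was at 819 RPM (743 to 903) in fat, 657 (596 to 725) in kidney, 533 (460 to 619) in liver, 475 (380 to 594) in testes and 461 (376 to 565) in the library labelled pancreas. The intervals of neighbours from kidney to the library labelled pancreas overlapped, so their order was not resolved at this depth. Lung followed at 243 RPM (224 to 264), and then thymus at 135 (110 to 166), spleen at 103 (68.1 to 156) and muscle at 88.9 (73.9 to 107), whose neighbouring intervals also overlapped. Heart was at 39.9 RPM (26.6 to 59.9). The 3 brain libraries held 54, 9 and 8 reads, a mean of 27.1 ± 15.6 RPM (SD, n = 3), with the highest at 44.8 RPM and so within the heart interval. At 100 RPM or more, mir-203a was present in 12 of 15 tissues.

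mir-205 had the same leading tissues but a much shorter reach. It was at 9133 RPM (8920 to 9350) in skin, 997 (930 to 1069) in stomach and 419 (365 to 480) in fat, each apart from the next. Thymus at 184 RPM (154 to 219) and large intestine at 153 (141 to 166) overlapped, and muscle at 106 (89.1 to 125), lung at 74.4 (64.3 to 86.2) and small intestine at 34.2 (21 to 55.5) came after them. The remaining 7 tissues were near the floor. Testes held 1 read, spleen 1, liver 2 and kidney 2, the heart library and the library labelled pancreas held none, and the 3 brain libraries held 4, 5 and 0. At 100 RPM or more, mir-205 was present in 6 of 15 tissues, and 82.1% of its summed level was in skin, 8.02 above the tissue median on the log2(RPM + 1) scale.

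**Figure D1:**
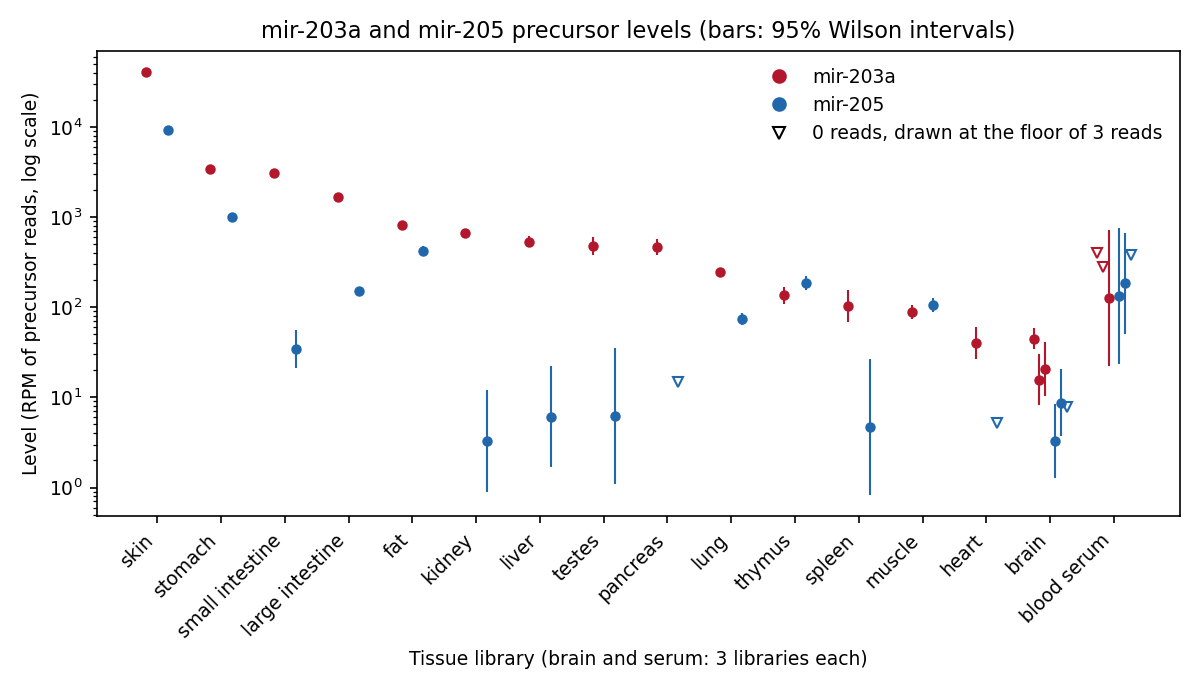
Precursor level in RPM (vertical axis, log scale) of mir-203a in red and mir-205 in blue in each tissue library, with 95% Wilson intervals; brain and serum show 3 libraries each, and open triangles mark libraries with 0 reads, drawn at the level of 3 reads. Both are highest in skin, mir-203a at 40295 RPM and mir-205 at 9133 RPM, and from kidney to the library labelled pancreas mir-203a stays between 461 and 657 RPM while mir-205 is near the floor.

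By library totals, the order skin, then stomach, was found for mir-203a and mir-205 alone among the precursors compared. Of 295 precursors with at least 10 reads in at least 3 tissue libraries, 16 were highest in skin, and mir-203a and mir-205 were the 2 that had skin and stomach as their leading pair. Among the 16, mir-205 stood furthest above its tissue median and mir-203a next. Over all 295, however, they ranked only 30 (mir-205) and 57 (mir-203a) by that measure, against a median of 3.43 on the log2 scale, and their shares of 82.1% and 77.4% in the top tissue compared with a median of 32.6%. With scaling by trimmed mean of M values (TMM) 11 precursors were highest in skin, and the same 2 had skin and stomach on top. With DESeq2 size factors 10 were highest in skin, and mir-708 joined the 2.

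How far skin stood above stomach depended on the scaling. By library totals, mir-203a was 11.9-fold and mir-205 9.16-fold higher in skin. With TMM the folds were 4.52 and 3.49, and with DESeq2 size factors 4.89 and 3.78. One precursor, mir-143 of smooth muscle and mesenchyme, took 61.2% of the stomach library and 12.8% of the skin library, and its part in these folds was not tested. Skin and stomach remained the first and next highest under each of these scalings. Below them the order moved: for mir-203a fat was the fifth tissue by totals and the eighth with TMM. The shares of skin in the summed levels given above are by library totals and also depend on the scaling. With TMM, mir-203a was at 33178 RPM in skin and 7338 in stomach, and mir-205 at 7520 and 2154, so the shares of skin were lower.

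The ratio of the pair within a library does not depend on scaling, and it differed widely between tissues. mir-203a reads made up 81.5% (exact 95% interval 81.1 to 81.9) of the 2 precursors' reads in skin, 77.3% (75.9 to 78.7) in stomach, 76.6% (73.4 to 79.5) in lung and 66.2% (62.3 to 69.9) in fat. In the gut the pair drew apart, with mir-203a at 91.7% (91.0 to 92.3) in large intestine and 98.9% (98.2 to 99.4) in small intestine. Kidney, liver and testes were close to mir-203a alone, at 99.5%, 98.9% and 98.7%, and the library labelled pancreas held 93 mir-203a reads and no mir-205 read.

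Thymus and muscle went the other way. There mir-203a made up 42.4% (35.6 to 49.4) and 45.7% (39.4 to 52.2) of the pair, so mir-205 was the more abundant in thymus, and the muscle interval included equal amounts. On the mature list, where miR-203a-3p and miR-205 were compared, the share was 65.6% in skin, 64.8% in stomach, 23.4% in thymus and 22.2% in muscle. Fat and lung turned on that list, to 39.5% (33.9 to 45.3) and 43.3% (37.5 to 49.2), so which of the pair was the more abundant there depended on the list. Stomach and small intestine had nearly the same mir-203a level (3398 and 3077 RPM), yet mir-205 was at 997 RPM in the one and 34.2 RPM in the other.

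**Figure D2:**
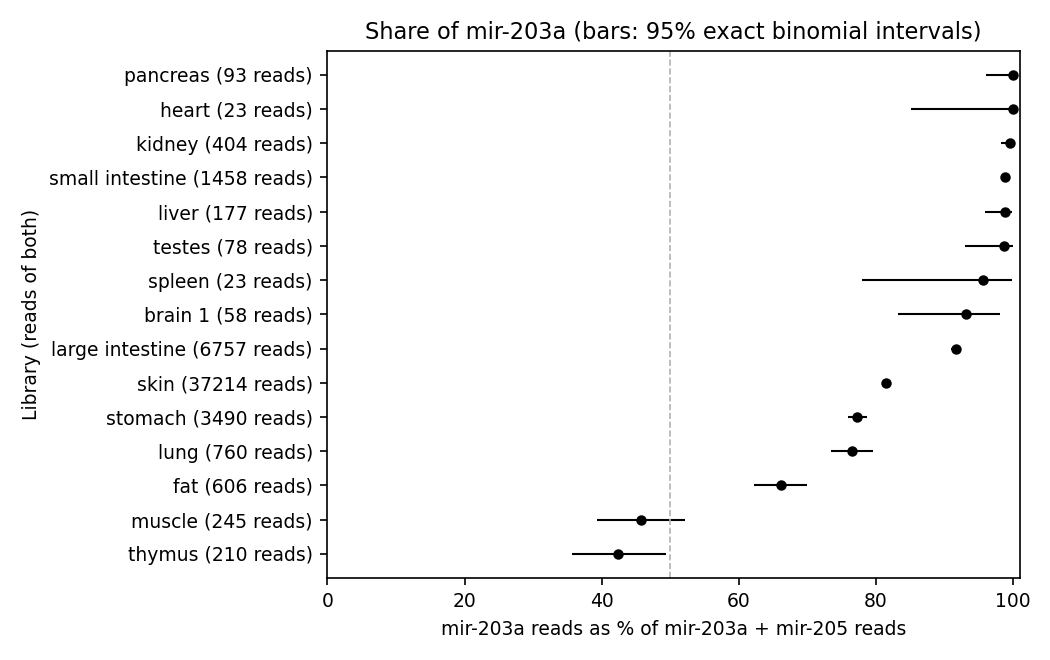
mir-203a reads as a percent of mir-203a plus mir-205 reads (horizontal axis) in each library with at least 20 reads of the pair, with exact 95% binomial intervals; the dashed line marks equal amounts. Thymus (42.4%) and muscle (45.7%) have their points below the line, skin and stomach sit near 80%, and kidney and small intestine are near 100%.

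The mir-200 family (mir-200a, mir-200b, mir-200c, mir-141 and mir-429), expressed in epithelia in general, did not follow the same order. Its summed level by library totals was highest in large intestine at 15432 RPM and in small intestine at 9434. Skin came after them at 7631, next to stomach at 6048 and lung at 5752. Skin was thus 1.26-fold above stomach for the family sum, against 11.9-fold for mir-203a and 9.16-fold for mir-205 on the same scale. That order of skin and stomach for the family depends on the scaling. TMM took mir-203a from 11.9-fold to 4.52-fold, a change common to every precursor and larger than 1.26-fold. The ratio of mir-203a to the family sum, free of scaling, was 5.28 in skin and 0.562 in stomach. Thymus held 4418 RPM of the family with 135 RPM of mir-203a, and lung 5752 RPM with 243 RPM. Fat, muscle and testes lay at the other end, with 466, 24.6 and 136 RPM of the family beside 819, 88.9 and 475 RPM of mir-203a.

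By Pearson correlation of log2(RPM + 1) over the 15 tissues, the 5 of 293 precursors most like mir-203a were mir-31a (r = 0.69), mir-200b (0.61), mir-200c (0.57), mir-214 (0.53) and mir-141 (0.52). Those most like mir-205 were mir-708 (0.64), mir-200c (0.64), mir-152 (0.59), mir-224 (0.56) and mir-615 (0.55). The pair itself had r = 0.66, and 0.46 without skin. mir-31a, another microRNA abundant in skin, was also highest there, at 2582 RPM, 7.03-fold above stomach. It belonged to a list of 6 other skin microRNAs, with mir-34a, mir-184, mir-211 and the mir-125b precursors. That list as a whole was not highest in skin: it summed to 4108 RPM there and to 5939 RPM in brain. The tissues share the 3 rats, and the libraries differ in depth, so the correlations only describe likeness. mir-31a and mir-200b stayed among the 5 nearest to mir-203a, and mir-708 among the 5 nearest to mir-205, when Spearman's rho, an added 10 RPM or TMM scaling was used. mir-200c was lost from the 5 of mir-203a under TMM and from the 5 of mir-205 with 10 RPM added.

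**Figure D3:**
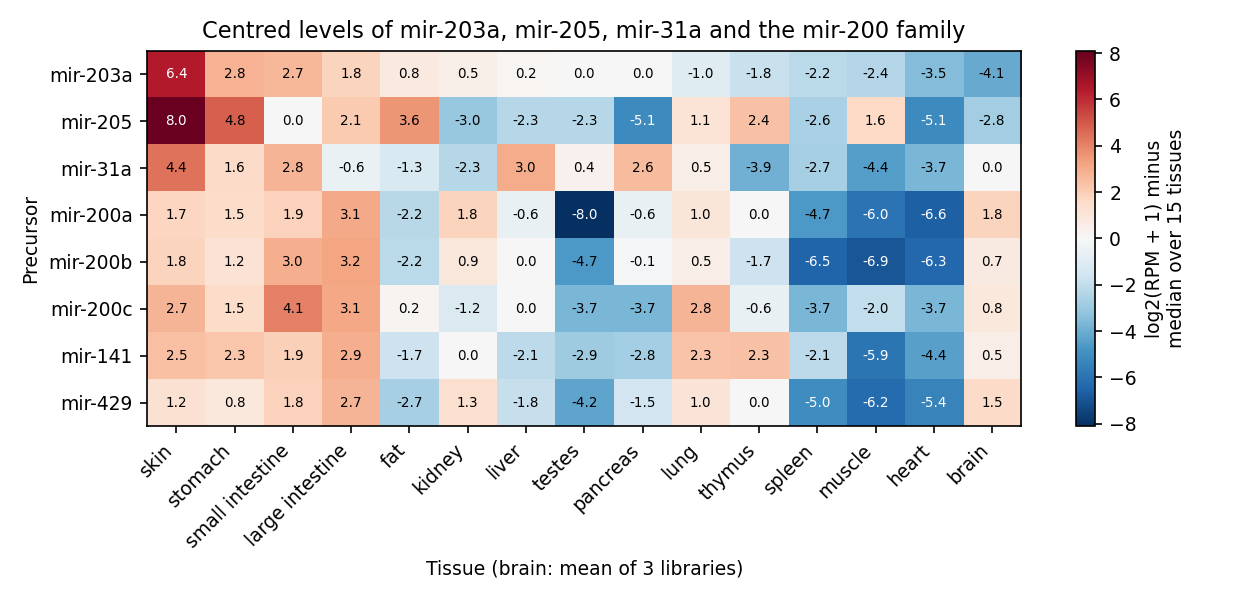
log2(RPM + 1) minus its median over the 15 tissues (colour and printed value) for mir-203a, mir-205, mir-31a and the 5 mir-200 family precursors; tissues run from left to right by mir-203a level, and brain is the mean of 3 libraries. mir-203a and mir-205 have their darkest red in skin (6.40 and 8.02), while the mir-200 family is red across skin, gut, lung and brain and blue in muscle and heart.

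Which side of the mir-203 locus carried the mature reads differed between tissues. As the sequences above show, miR-203a-5p and miR-203b-3p lie on opposite strands of the same bases, with 20 in an unbroken complementary run, and so do miR-203a-3p and miR-203b-5p. The deposited estimates split reads between miR-203a-5p and miR-203b-3p in fractions, 9.33 and 19.67 in skin and 1.40 and 9.60 in large intestine. Both sums were whole within 0.02 reads. In every other library the estimates of these arms were already whole or 0, so their sums could not differ from a whole number. The handling of strand in the counting is not given in the sources used here. The arms are therefore summed into a 3′ side (miR-203a-3p or miR-203b-5p) and a 5′ side (miR-203a-5p or miR-203b-3p), named for the mir-203a hairpin, and the partners cannot be told apart.

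In the tissues with most mir-203a nearly all mature reads were on the 3′ side. The 5′ side took 0.250% (0.168 to 0.360, 29 of 11578 reads) in skin, 0.0744% (1 of 1344) in stomach, 0.708% (3 of 424) in small intestine, 0.726% (11 of 1515) in large intestine and 0.794% (1 of 126) in lung. In kidney it took 49.2% (42.1 to 56.4, 98 of 199), in the library labelled pancreas 50% (30.6 to 69.4, 14 of 28), in fat 29.3% (22.6 to 36.9, 49 of 167) and in liver 21.4% (10.3 to 36.8, 9 of 42). All 98 of the kidney reads and all 49 of the fat reads were listed under miR-203b-3p. Muscle (16.3%, 7 of 43), thymus (10.8%, 4 of 37) and the first brain library (11.5%, 3 of 26) lay between, with wide intervals. The intervals of kidney and fat lay above those of skin, stomach, both intestines and lung, although each is a single pool. Testes, spleen and heart had no 5′ side read among 20, 8 and 9.

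The precursor rows did not show this difference. The mir-203b precursor was listed at 0.0238% to 0.0239% of the mir-203a precursor in each of the 18 libraries with mir-203a reads, 7.22 estimated reads in skin, so its estimate was a fixed part of the mir-203a reads and carried no measurement of its own. No level, fold or test is given for it.

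**Figure D4:**
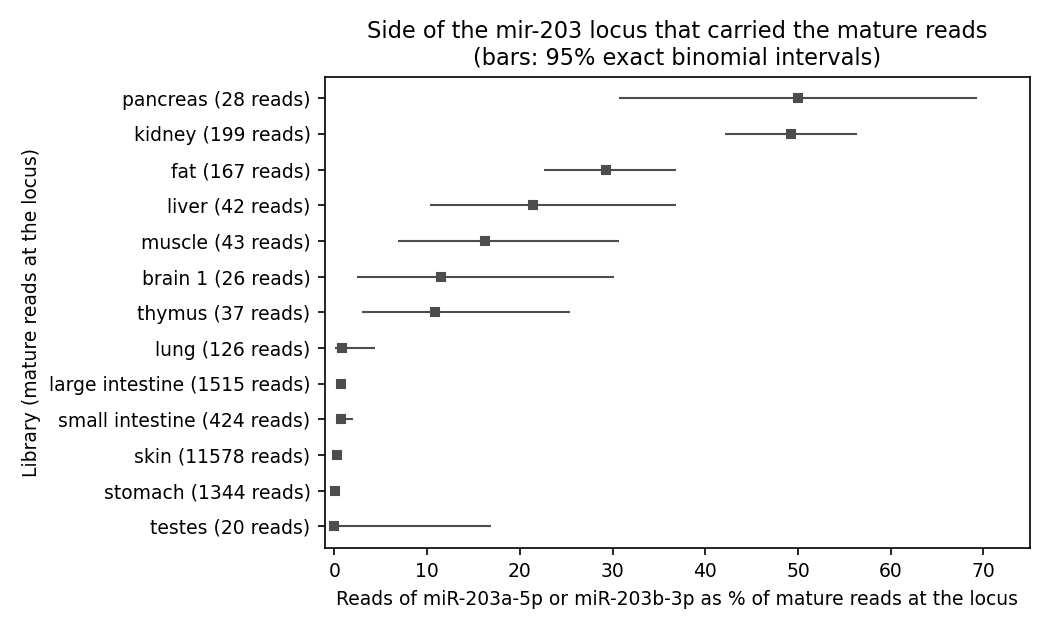
Reads of the 5′ side (miR-203a-5p or miR-203b-3p) as a percent of all mature reads at the mir-203 locus (horizontal axis) in the 13 libraries with at least 20 such reads, with exact 95% binomial intervals. Kidney (49.2%), the library labelled pancreas (50%) and fat (29.3%) stand to the right, and skin, stomach, both intestines and lung are below 1%.

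On the mature list the order of the main arms resembled that of the precursors. miR-203a-3p was at 22286 RPM of mature reads in skin, 1925 in stomach, 1122 in small intestine, 531 in large intestine, 371 in fat and 267 in kidney. miR-205 was at 11700 RPM in skin, 1047 in stomach, 569 in fat, 204 in thymus, 169 in large intestine and 154 in muscle. miR-203a-3p was 1.90-fold above miR-205 in skin and 1.84-fold in stomach. A smaller part of the mir-203 than of the mir-205 precursor reads was listed under mature arms. Over the tissue libraries, 15573 mature reads stood against 42728 precursor reads at the mir-203 locus, or 36.4%, with 21.6% in lung, 38.2% in skin and 49.8% in stomach. For mir-205 the percent was 88.5% over all tissue libraries and between 84.8% and 94.7% in the 7 libraries with at least 50 reads. Over 250 precursors the median was 63.9%, with quartiles of 21.4% and 88.7%, and both values lay between the quartiles.

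**Figure D5:**
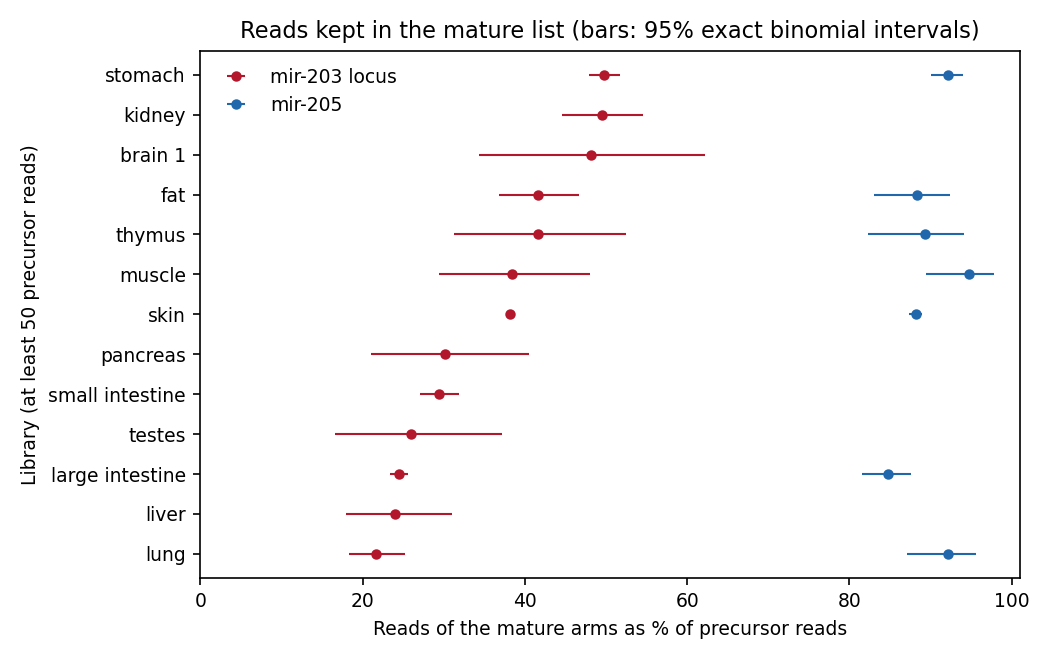
Reads listed under the mature arms as a percent of precursor reads (horizontal axis) for the mir-203 locus in red and mir-205 in blue, in libraries with at least 50 precursor reads, with exact 95% binomial intervals. The mir-203 locus runs from 21.6% in lung to 49.8% in stomach, and mir-205 lies between 84.8% and 94.7%.

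Brain held the least mir-203a of the 15 tissues. The 3 hemispheres were set against the 14 pools as a whole. edgeR (quasi-likelihood, Benjamini-Hochberg adjustment) tested 295 precursors, of which 24.1% were higher and 18.6% lower in brain. mir-203a was lower in brain, with a log2 fold change of -8.16 (SE 2.71, adjusted p = 0.024). mir-205 had a log2 fold change of -8.54 (SE 3.53, adjusted p = 0.057) and missed the threshold of 0.05. The test is a fit against very different tissues, skin above all. Without skin the values were -6.80 (adjusted p = 0.016) and -6.79 (adjusted p = 0.058).

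With any hemisphere left out, the log2 fold change of mir-203a was -8.75 to -7.82 with an adjusted p of 0.084 to 0.10, and that of mir-205 was -9.36 to -7.96 with an adjusted p of 0.138 to 0.164. Over all precursors the calls then fell from 71 higher and 55 lower to 24 to 26 higher and 14 to 16 lower. DESeq2, which called 68 of the 295 precursors higher and 119 lower, gave adjusted p of 9.4e-10 and 3.1e-05. On the mature list edgeR gave 0.027 for miR-203a-3p and 0.045 for miR-205. mir-205 also passed when heart (adjusted p = 0.047), muscle (0.049) or the library labelled pancreas (0.047) was left out. No hemisphere reached the minimum count of the filter for mir-205, and only the first did for mir-203a. Both therefore passed the count filter through the pools, which limited the direction that these tests could find. The hemispheres are a single tissue and the error came from the spread between tissues, so the p-values can be too small, and the groups overlapped for both members: the highest hemisphere (44.8 RPM) was above heart (39.9 RPM) for mir-203a, and heart had no mir-205 read.

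The mir-200 family was present in the hemispheres. Brain held 929 ± 125 RPM of mir-200a, 835 ± 228 of mir-200b, 993 ± 149 of mir-141 and 1397 ± 388 of mir-429 (SD, n = 3), and 22.7 ± 11.4 RPM of mir-200c. Against the pools 0 of the 5 passed the edgeR test (adjusted p from 0.26 to 0.71, and 0 of 5 at an unadjusted p under 0.05). DESeq2 called 1 of them, mir-141 (log2 fold change -3.02, adjusted p = 0.036), where it called 119 of all 295 precursors lower and 68 higher. The difference between the family and the members was not tested. In bulk samples, fewer cells of a type and less RNA per cell cannot be told apart.

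In serum the pair was at the limit of detection. The 3 serum libraries held 0, 0 and 1 reads of mir-203a and 1, 2 and 0 reads of mir-205, among 26348 precursor reads in all. Summed, this is 37.9 RPM (6.70 to 215) of mir-203a and 114 RPM (38.7 to 335) of mir-205. The upper bound for mir-203a lay below the intervals of the 10 tissues from lung upwards, and that for mir-205 below those of skin, stomach and fat, whereas the mir-203a levels of the remaining 5 tissues could not be separated from serum at this depth. The lower bound for mir-205 lay above the upper bounds of the 7 tissues near the floor, with serum resting on 3 reads, and its interval overlapped those of the other 5 tissues.

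Against the 14 pools (236 precursors tested, 5.93% higher and 16.9% lower in serum), edgeR gave mir-203a a log2 fold change of -7.92 (SE 2.86, adjusted p = 0.053) and mir-205 one of -3.95 (SE 2.84, adjusted p = 0.32). DESeq2, which called 20 of the 236 precursors higher and 56 lower, gave adjusted p = 0.0012 for mir-203a. In edgeR mir-203a also passed without heart (adjusted p = 0.043), muscle (0.048), skin (0.041), spleen (0.041) or thymus (0.047), and with any serum library left out its adjusted p lay between 0.12 and 0.20. Neither member reached the minimum count of the filter in any serum library, so both were tested only because of the pools. The direction of all these values was therefore largely fixed by the filter and the serum depth. The passes of mir-203a add little to the intervals of the summed reads given above, which do not depend on the filter. Between brain and serum (235 precursors tested, 44.7% higher and 18.7% lower in brain), neither member had enough reads to be tested. Without that filter edgeR tested 372 precursors, of which 124 were higher and 49 lower in brain. There mir-203a had a log2 fold change of 0.07 (SE 1.57, adjusted p = 0.97), and mir-205 was lower in brain at -4.28 (SE 1.48, adjusted p = 0.0096), a call that rests on 3 serum and 9 brain reads. In edgeR with the filter mir-200a, mir-200b, mir-141 and mir-429 were higher in brain than in serum (adjusted p from 0.00010 to 0.00057). Serum held no read of mir-200a, mir-200b or mir-429 and 3 reads of mir-141. They passed the count filter only through the 3 brain libraries, so the direction of these calls was largely fixed by the filter. The calls therefore draw no contrast with mir-203a and mir-205, which failed it. mir-200c had too few reads to be tested there.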

How the data were processed

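Small RNA was extracted with miRNeasy kits, libraries were made with the TruSeq Small RNA kit and sequenced on a MiSeq. The authors trimmed reads at a phred score of 20, aligned them to Rn5 with Bowtie and quantified them in Partek Flow on miRBase 21 precursors, miRBase 21 mature sequences and RefSeq. The deposited values are estimated counts per feature, not normalized, in 3 lists stacked in a file per library. Each list was read separately, and RPM was computed within a list.

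Tests used edgeR 4.0.16 (TMM, quasi-likelihood, rounded counts, precursors with at least 10 reads in at least 3 libraries), with DESeq2 1.42.0 as an alternative, in R 4.3.3, and were checked on simulated data. The SE printed with an edgeR fold change was worked back from the test. It is the absolute log2 fold change divided by the square root of the F statistic. Single pools were described with 95% Wilson or exact binomial intervals (SciPy 1.17.1), which cover counting error only. The precursors named beside the members were the mir-200 family and, for each member, the 5 with the highest Pearson r, with markers where a result turned on them. The members and lists were chosen with earlier results of these data known. The RefSeq table held hairpin and mature sequences for all members.

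Brain and serum replicates of the same number were taken as the same rats: the methods describe a single cohort of 3 and the file headers of brain and serum carry the same numbers, while the labels only number the replicates. The deviations of same-numbered libraries from the group means had correlations of 0.17, -0.06 and -0.21 over 75 precursors, and an unmatched pair reached 0.30.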

Additional observations from a re-analysis of the deposited data

How the results depend on the processing

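Skin was the highest tissue for mir-203a and mir-205 with TMM, with DESeq2 factors and on the RefSeq and mature lists. An added pseudocount cannot change which tissue is highest. The RefSeq list held the same reads of both and differed only in the library totals. The log2 difference of skin over the tissue median, 6.40 for mir-203a, was 6.38 with 10 RPM added, 5.74 with TMM, 5.46 with DESeq2 factors, 6.34 on the RefSeq list and 7.15 on the mature list. For mir-205 (8.02) it was 8.06 with 0.1 RPM, 7.69 with 10 RPM, 7.05 with TMM, 6.76 with DESeq2 factors, 9.02 on the RefSeq list and 8.16 on the mature list. Skin over stomach (3.57 and 3.19) was 2.18 and 1.80 with TMM, 2.29 and 1.92 with DESeq2 factors, and 3.48 for mir-205 on the mature list. The mir-203a share on the mature list was 65.6% in skin, 64.8% in stomach, 75.9% in large intestine, 96.6% in small intestine, 98.1% in kidney, 94.3% in liver, 23.4% in thymus and 22.2% in muscle, and it turned to mir-205 as the more abundant in fat (66.2% to 39.5%) and lung (76.6% to 43.3%). On the RefSeq list Mir203 was at 1591 RPM in small intestine, where Mir215 took 50.3% of the reads, and at 1641 in large intestine, the reverse of the precursor order.

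In brain against the pools (71 higher, 55 lower), library totals gave 123 and 24, DESeq2 119 lower, and at least 10 reads in every library 11 and 21. In brain against serum (105 and 44) the last filter gave 26 and 20. In serum against the pools (14 and 40), RLE scaling gave 23 higher, library totals 28 and 13, the mature list 9 higher, and the last filter 18 lower. Members were lost under that filter. The fold change of mir-205 in brain was -7.44 with DESeq2 and -8.76 on the mature list, and that of mir-203a in serum was -6.14 with DESeq2. Leaving out single libraries gave 24 to 84 higher and 14 to 64 lower in brain against the pools (24 to 26 higher without a hemisphere), 29 to 102 and 25 to 43 in brain against serum, and 8 to 21 and 22 to 46 in serum against the pools. It gave fold changes of -8.75 to -6.80 for mir-203a and -9.36 to -6.79 for mir-205 in brain, and -14.39 to -6.08 and -4.37 to -1.77 in serum, where -14.39 comes from leaving out the only serum library with a mir-203a read and so has no meaning as a size. With the replicate number as a block, brain against serum gave 97 higher and 44 lower, and it changed no call on the mir-200 family or, for want of reads, on a member. The causes of these changes were not tested. Serum depth limits every serum value, and the 14 pools have no replicate error. The replicates are separate rats.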

Other observations

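The skin pool also held striated muscle microRNAs, whose summed level was 2182 RPM, of which mir-133a made up 2100 RPM. The muscle pool in turn held 106 RPM of mir-205 and 88.9 RPM of mir-203a with 24.6 RPM of the mir-200 family summed, the lowest family level among the 15 tissues.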
